A study of Rattus norvegicus with 12 samples.

Results

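Chemokines are small secreted or membrane-bound proteins that guide leukocytes along gradients, and the CXC and CX3C families are named for the spacing of their first cysteines. The genes described here were 10 members of these families in rat vein: the ligands Cxcl1, Cxcl2, Cxcl9, Cxcl10, Cxcl11, Cxcl12 and Cxcl16 and the receptors Cxcr3, Cxcr4 and Cx3cr1. They were chosen by name and matched to probes through their RefSeq transcripts, and were 10 of 13903 genes with a named probe. They are not the whole family on the array, and the other ligands and receptors with a tested probe are given as lists of their own. All 10 passed the filter on dim probes.

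RNA came from veins of male rats, on 12 single-colour Agilent arrays, with 3 arrays for each of 4 days. The grafts were external jugular veins sewn into the carotid artery as a bypass and taken at days 7, 14 and 28. At day 0 the vein came from rats that had no operation. No sham operation is among the groups, so surgery and arterial placement cannot be told apart. No strain, age or drug is given in the labels, and the same replicate number stands on every title, so replicates are numbered here in accession order and pair nothing across days. The design text calls the arrays after surgery independent experiments, but nothing says that each held a separate animal, and p-values may then measure technical spread alone.

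The inflammatory CXC ligands fall into groups by receptor. Cxcl1 and Cxcl2 carry a glutamate-leucine-arginine motif and attract neutrophils through Cxcr2, whereas Cxcl9, Cxcl10 and Cxcl11 are induced by interferons and attract activated T and NK cells through Cxcr3. Cxcl12 acts on Cxcr4 and keeps stem cells and leukocytes in place or draws them to injured vessels, and the atypical receptor Ackr3 takes it up. Cxcl16 and Cx3cl1 are made as membrane-bound proteins, whose receptors are Cxcr6 and Cx3cr1, and Cx3cr1 is carried by monocytes, macrophages and cytotoxic lymphocytes. In vein grafts such ligands are studied because leukocytes enter the wall in the weeks after it is exposed to arterial flow.

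A level below is the log2 intensity of a gene's brightest probe minus the 75th percentile of its array, and a change is a difference of such levels, given with its standard error. Levels of different probes are not comparable. A change was called when limma's adjusted p was under 0.05 after Benjamini-Hochberg adjustment over 21063 probes. Between 71.9% and 82.6% of the spots of an array were well above background, and the 75th percentile lay between 493.6 and 990.7. Smooth muscle markers had a median level of 6.43 to 7.84 at day 0 and 2.58 to 4.13 in grafts. No gene of venous identity was examined here, and the label of vein was taken as given. Endothelial markers had a median level of 1.61 to 3.01 at day 0, 0.19 to 0.87 at day 7, 0.80 to 0.97 at day 14 and 1.44 to 2.29 at day 28. In whole tissue, fewer cells of a type and less RNA per cell cannot be told apart.

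Markers of other tissue moved between the groups as well. Of 5 tested adipocyte markers 4, 5 and 4 fell at days 7, 14 and 28, with median changes of -6.57, -5.79 and -4.96, and of 8 smooth muscle markers 8, 8 and 7 fell (-3.66, -4.26 and -2.96). Of 5 skeletal muscle markers 0, 3 and 5 rose, with median changes of 2.03, 4.33 and 6.50, and their median level at day 28 ran from 3.06 to 6.97, against -1.63 to -1.25 at day 0. Over all probes 15.4%, 17.4% and 16.5% were called lower and 17.7%, 20.1% and 17.4% higher. Of 6 endothelial markers 4, 4 and 2 fell and 0, 0 and 1 rose, of 7 fibroblast markers 4, 4 and 3 rose and 0, 1 and 0 fell, and of 4 B and plasma cell markers 2, 1 and 2 rose. Of 4 platelet markers 2, 1 and 0 rose, and of 5 mast cell markers 3, 1 and 1 fell and 1 rose on each day. The part of these shifts of other tissue in the changes of the 10 genes was not tested.

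The 3 day 0 arrays did not match each other for these genes. Day 0 replicate 1 lay above day 0 replicates 2 and 3 in 9 of the 10 members, against 34.8% of 20685 probes with values on all arrays, and the exception was Cxcl9. It exceeded the mean of the other two by 4.34 for Cxcl1, 3.85 for Cxcl2, 3.20 for Cxcl11, 3.04 for Cxcr3, 3.00 for Cx3cr1 and 2.83 for Cxcr4, while the median difference over all probes was 0.06. The same array was higher in 13 of 15 macrophage markers, 9 of 13 T and NK cell markers and 4 of 4 B and plasma cell markers. It was also higher in 3 of 4 neutrophil, 4 of 5 adipocyte, 5 of 7 fibroblast, 4 of 6 endothelial and 3 of 5 mast cell markers. This held for 2 of 5 skeletal muscle, 0 of 8 smooth muscle and 0 of 4 platelet markers. Cxcl13, the B cell attractant of lymphoid tissue, stood at 3.81 there and at -2.51 and -2.45 on the other two, and was read from the data after its values were seen. The part of these markers in the difference was not tested. Results that rest on this array are therefore given with and without it. Day 0 replicate 3 and day 7 replicate 3 had 460 and 393 non-uniform spots, against 2 to 11 on the others.

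Arrays scanned at the same time were taken to share a slide. Days 14 and 28 met on slide 1 (2 arrays each), days 7 and 14 on slide 2 (3 arrays and 1), and day 28 met day 0 replicates 1 and 2 on slide 3 (1 array). Day 0 replicate 3 was scanned apart from the others and was counted as alone on slide 4. Its position was 4, and slide 3 held positions 1, 2 and 3 only, so it may belong to slide 3. A fit with it on slide 3 was not run. Day 7 and day 14 never shared a slide with day 0, so for them the slide and the day are linked through other days only.

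Most of the 10 genes were higher in grafts than in unoperated vein. At day 7, 8 of the 10 members rose (Cxcl2, Cxcl10, Cxcl11, Cxcl12, Cxcl16, Cxcr3, Cxcr4 and Cx3cr1), against 17.7% of all probes. At day 14 and at day 28, 6 of 10 rose, against 20.1% and 17.4% of probes, and both times these were Cxcl10, Cxcl12, Cxcl16, Cxcr3, Cxcr4 and Cx3cr1. No member fell on any of these days by limma (Benjamini-Hochberg adjusted p). The median change of the 10 members was 3.28, 2.35 and 1.93 at days 7, 14 and 28, beside -0.03, 0.02 and 0.01 over all probes. Averaged over the 3 graft days, 8 of 10 rose, against 22.5% of probes. All 3 arrays of the day lay above the highest day 0 array in 7 members at day 7, 6 at day 14 and 6 at day 28, and this held for 19.8%, 25.9% and 23.9% of probes.

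These counts moved with the day 0 arrays and the slide. Without day 0 replicate 1, 9 members rose on every graft day, Cxcl9 being the exception, with 20%, 22.7% and 21.2% of probes called higher. When day 0 replicate 2 was left out, 7, 6 and 4 members rose, against 16.9%, 20.8% and 16.3% of probes. With the slide as a fixed block, 0, 1 and 1 members were called at days 7, 14 and 28, the 1 being Cx3cr1, while 0.171%, 3% and 3.49% of probes were called higher. The changes themselves stayed close to their size with this block for Cxcr4 (4.31, 4.61 and 4.0) and Cxcl12 (1.74, 1.92 and 1.73), and were smaller for Cxcl16 (1.79, 1.36 and 1.24) and Cxcl10 (3.37, 1.64 and 1.67). Those of Cxcr3 (2.38, 2.99 and 1.78) and Cx3cr1 (4.92, 5.21 and 4.51) were smaller too. So were those of Cxcl1 (0.03, 0.72 and 0.94), Cxcl2 (2.10, 1.66 and 0.71) and Cxcl11 (1.79, 0.33 and -0.08). Day 0 replicate 3, counted as alone on slide 4, added nothing to a change under this block. Day 0 then met the grafts only on slide 3, through its replicates 1 and 2 and 1 day 28 array. With a fit on the arrays of the 2 days compared alone, 3, 5 and 3 members rose, against 7.71%, 14.7% and 11.1% of probes.

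**Figure D1:**
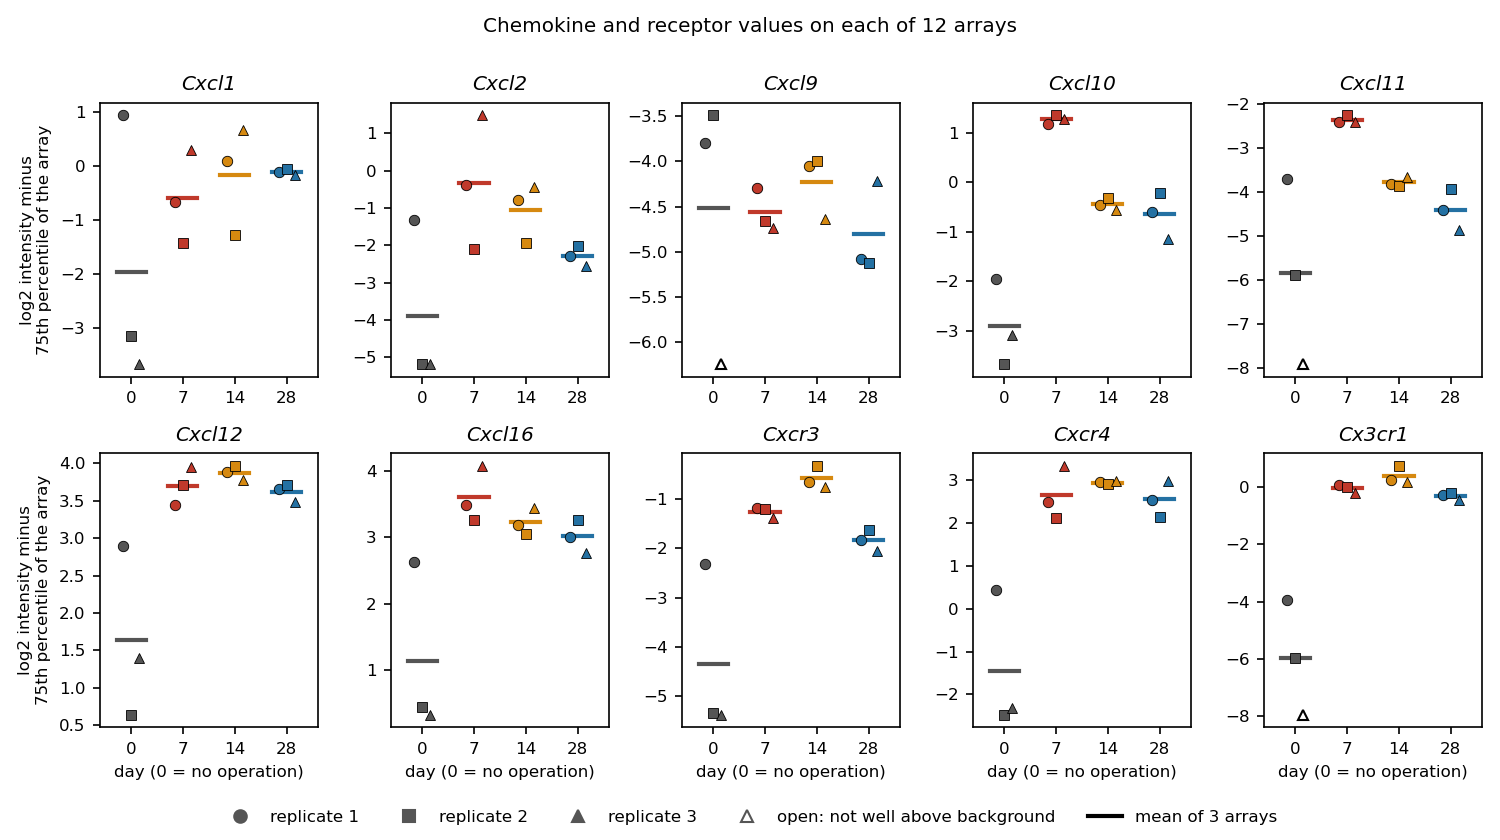
Level of each of the 10 genes on each array (y axis, log2 intensity minus the 75th percentile of the array) by day (x axis), with one symbol per replicate, bars for the mean of 3 arrays and open symbols for values not well above background. Day 0 replicate 1 (circle) is the highest day 0 array in every panel but Cxcl9, and all 9 graft arrays lie above it for Cxcl10, Cxcl12, Cxcl16, Cxcr3, Cxcr4 and Cx3cr1.

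The neutrophil attractants Cxcl1 and Cxcl2 varied widely between arrays of a day. Cxcl2 stood at -1.32, -5.18 and -5.17 on the day 0 arrays and at -0.39, -2.09 and 1.48 at day 7. It stood at -0.78, -1.95 and -0.45 at day 14 and at -2.28, -2.01 and -2.54 at day 28. Day 0 replicate 1 thus lay above 5 of the 9 graft arrays and below 4. Cxcl2 rose by 3.55 ± 1.08 at day 7 (adjusted p = 0.0282), and its changes of 2.83 at day 14 (adjusted p = 0.0617) and 1.61 at day 28 (adjusted p = 0.268) were not called. The day 7 call was lost with the slide as a random block (3.53, adjusted p = 0.0648) or a fixed block (2.10), on the arrays of the 2 days alone, without the 2 arrays with many non-uniform spots (2.01), and without any one of day 0 replicate 2, day 0 replicate 3, day 7 replicate 1 or day 7 replicate 3 (adjusted p up to 0.0936). With day 0 replicate 1 left out it was called on all 3 days, at 4.84, 4.11 and 2.90.

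Cxcl1, which acts through the same receptor as Cxcl2, read 0.94 on day 0 replicate 1 and -3.13 and -3.66 on the other day 0 arrays. At day 7 it read -0.67, -1.42 and 0.30, at day 14 0.10, -1.27 and 0.67, and at day 28 -0.11, -0.06 and -0.16. No graft array exceeded day 0 replicate 1, and all 9 exceeded the other two. Its changes of 1.36 ± 1.03 (adjusted p = 0.345), 1.79 (adjusted p = 0.198) and 1.84 (adjusted p = 0.19) were not called. Without day 0 replicate 1 it rose by 2.80, 3.23 and 3.29 (adjusted p = 0.00547, 0.00233 and 0.0024), so the call for Cxcl1 depended on that array.

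Neutrophil markers moved beside Cxcl2. The median level of 4 tested markers was 0.31, -1.35 and 1.72 on the day 7 arrays, highest and lowest on the same arrays as Cxcl2. At day 28 it was -2.27 to -2.12, against -3.00 to -2.03 at day 0. By limma's adjusted p, 3, 1 and 0 of the 4 rose, against 17.7%, 20.1% and 17.4% of all probes. The 1 of 4 at day 14 is near the share of all probes. S100a8, an abundant neutrophil and monocyte protein, rose by 4.31 ± 1.05 at day 7 (adjusted p = 0.0102), and Csf3r, the receptor for granulocyte colony-stimulating factor, rose by 4.27 at day 7 and 4.22 at day 14. Cxcr2, the receptor of Cxcl1 and Cxcl2, rose by 3.05 ± 0.97 at day 7 (adjusted p = 0.0349) and 2.80 at day 14 (adjusted p = 0.0439), and its change of 0.23 at day 28 was not called. At day 0 Cxcr2 read -4.14, -2.75 and -6.70, well above background on 2 of the 3 arrays. At day 7 it read -1.15, -3.34 and 0.05, so replicate 3 was again the highest and replicate 2 the lowest, below day 0 replicate 2. Cxcl6, a further neutrophil attractant, rose by 3.18 ± 0.71 at day 14 (adjusted p = 0.00587). The part of neutrophil RNA in the Cxcl2 values was not tested.

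The ligands of Cxcr3 did not all move alike, although Cxcl11, Cxcl10 and Cxcl9 lie next to each other in that order on chromosome 14. Cxcl10 and Cxcl11 followed each other, with Pearson's r = 0.88 over the 12 arrays and 0.97 over the 9 graft arrays. Cxcl9 had r of -0.02 with Cxcl10 and 0.37 with Cxcl11 over the 12 arrays, and -0.12 and -0.04 over the graft arrays. These r are descriptions. Cxcl10 read -1.95, -3.67 and -3.08 at day 0 and 1.18, 1.35 and 1.28 at day 7. It read -0.46, -0.31 and -0.57 at day 14 and -0.60, -0.21 and -1.14 at day 28. Every graft array lay above every day 0 array, and every day 7 array lay above every later one. Cxcl10 rose 18.1-fold at day 7 (log2 change 4.17 ± 0.38, adjusted p = 4.61e-05), by 2.46 ± 0.38 at day 14 (adjusted p = 0.000767) and by 2.25 at day 28 (adjusted p = 0.00182). The order of the days was 7, 14, 28 and 0, and days 14 and 28 did not differ beyond their spread (-0.21 ± 0.38, adjusted p = 0.789).

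Cxcl10 was also the only member called between graft days. From day 7 it fell by 1.72 ± 0.38 to day 14 (adjusted p = 0.0381), against 1.88% of probes called lower, and by 1.92 to day 28 (adjusted p = 0.0384), against 1.03% of probes. In the other direction 1.38% and 0.75% of probes were called and no member. From day 14 to day 28 no member was called by limma, while 2.4% of probes were higher and 2.08% lower. On slide 2, where the 3 day 7 arrays lay beside 1 of day 14, the difference was -1.73. Both calls missed the threshold with normexp background correction and with the slide as a fixed or random block, while the changes were -1.42, -1.73 and -1.76 to day 14 and -1.63, -1.70 and -1.95 to day 28. The call to day 14 was also lost in 7 of the 12 fits that left out 1 array and that to day 28 in 8 of 12, among them each fit without a day 7 or day 14 array (adjusted p up to 0.151 and 0.154).

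Cxcl11 read -3.71, -5.89 and -7.92 at day 0, the last of these not well above background. It read -2.41, -2.26 and -2.41 at day 7, -3.82, -3.87 and -3.66 at day 14 and -4.42, -3.94 and -4.88 at day 28. All day 7 arrays exceeded every day 0 array, while day 0 replicate 1 overlapped with days 14 and 28. Cxcl11 rose by 3.48 ± 0.79 at day 7 (adjusted p = 0.00727), and its changes of 2.05 at day 14 (adjusted p = 0.0636) and 1.42 at day 28 (adjusted p = 0.186) were not called. Without day 0 replicate 1 the changes were 4.54, 3.12 and 2.49, all called, and without day 0 replicate 3 they were 2.44, 1.01 and 0.38, with the first called. At day 28 the direction itself turned with normexp (-0.01) and with the slide as a fixed block (-0.08). Each of the 3 day 7 arrays was above each of the 6 later ones, but the drop of 2.05 ± 0.79 to day 28 missed the threshold (adjusted p = 0.216), as did that of 1.42 to day 14 (adjusted p = 0.428).

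Cxcl9 read -3.80, -3.49 and -6.24 at day 0, with the last not well above background, and between -5.12 and -3.99 on the 9 graft arrays. Its graft arrays lay within the day 0 range. The changes were -0.05 ± 0.61, 0.29 and -0.30 at days 7, 14 and 28 (adjusted p = 0.959, 0.734 and 0.729). Without day 0 replicate 3, Cxcl9 was called lower at day 7 (-0.92, adjusted p = 0.0499) and at day 28 (-1.17, adjusted p = 0.021), so no direction is given for it.

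To show what the promoters of these neighbours hold, the bases from 250 before to 50 after the gene start are printed in transcript direction from RefSeq (GRCr8), at chr14:16006916-16007215 for Cxcl9, chr14:15988816-15989115 for Cxcl10 and chr14:15973478-15973777 for Cxcl11, all on the plus strand. Capitals mark matches on either strand to the core of the interferon-stimulated response element (GAAA, any pair of bases, GAAA), to the gamma-activated site (TTC, any 3 bases, GAA) and to the NF-kappaB consensus, with overlapping matches joined.
Cxcl9: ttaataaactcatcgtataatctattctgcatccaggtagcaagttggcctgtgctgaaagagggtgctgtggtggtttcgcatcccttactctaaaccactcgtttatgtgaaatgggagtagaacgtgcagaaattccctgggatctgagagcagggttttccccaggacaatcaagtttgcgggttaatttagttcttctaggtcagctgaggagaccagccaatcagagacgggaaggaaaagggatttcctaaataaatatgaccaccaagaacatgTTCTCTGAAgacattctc
Cxcl10: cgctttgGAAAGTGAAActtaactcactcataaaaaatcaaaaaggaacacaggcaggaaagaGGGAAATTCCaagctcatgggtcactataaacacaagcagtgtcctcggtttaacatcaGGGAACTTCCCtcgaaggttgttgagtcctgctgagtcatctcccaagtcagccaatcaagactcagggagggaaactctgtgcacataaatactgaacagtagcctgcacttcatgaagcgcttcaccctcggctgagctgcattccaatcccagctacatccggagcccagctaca
Cxcl11: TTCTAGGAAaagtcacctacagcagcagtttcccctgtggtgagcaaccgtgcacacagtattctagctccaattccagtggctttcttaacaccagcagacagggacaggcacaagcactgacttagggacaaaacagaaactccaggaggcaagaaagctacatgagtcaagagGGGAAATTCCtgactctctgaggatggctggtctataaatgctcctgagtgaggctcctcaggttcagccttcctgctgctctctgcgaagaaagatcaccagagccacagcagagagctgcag

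Cxcl10 was the only member with the interferon core, GAAAGTGAAA at -243, and also held NF-kappaB matches at -187 (GGGAAATTCC) and -128 (GGGAACTTCCC). Cxcl11 held a gamma-activated site at -250 (TTCTAGGAA) and an NF-kappaB match at -74 with the same letters as one of Cxcl10. Cxcl9 held a gamma-activated site after the gene start, at 32 (TTCTCTGAA), and no NF-kappaB match in this window. The promoters of Cxcl1 and Cxcl2, which also neighbour each other on chromosome 14, each held 1 joined NF-kappaB match, GGGAATTTCCC at -84 and GGGGATTTCCC at -74. Of 27457 rat promoters of this length, 3.77% held the interferon core, 8.68% the gamma-activated site and 7.6% an NF-kappaB match. Among the 10 members these were 1, 2 and 4, and Cxcl12, Cxcl16 and the 3 receptors had none of the motifs in the window. A match is a string of letters and not a shown binding site.

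Part of the genes of NF-kappaB and the cytokines that induce these ligands were higher beside Cxcl2, Cxcl10 and Cxcl11. Of 10 tested NF-kappaB and cytokine genes, 5 rose at day 7, 5 at day 14 and 1, Tnf, at day 28, beside 17.7%, 20.1% and 17.4% of all probes called higher. Tnf, the inflammatory cytokine, rose by 4.79 ± 0.77 at day 7 and by 3.45 at day 28, and was well above background on 2 of the 3 day 0 arrays. Mx1, an interferon-induced antiviral protein, rose by 4.57 ± 0.51 at day 7 (adjusted p = 0.000135) and by 2.95 at day 28.

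Cxcr3, the receptor of these ligands, was higher on every graft array than on every day 0 array. It read -2.32, -5.34 and -5.38 at day 0, -1.19, -1.21 and -1.38 at day 7, -0.65, -0.32 and -0.75 at day 14 and -1.84, -1.63 and -2.05 at day 28. Its mean was highest at day 14, where all 3 arrays lay above those of days 7 and 28, and lowest among grafts at day 28. Cxcr3 rose by 3.09 ± 0.65 (adjusted p = 0.00518), 3.78 (adjusted p = 0.00144) and 2.50 (adjusted p = 0.0147). The step from day 7 to day 14 (0.69 ± 0.65, adjusted p = 0.664) and that from day 14 to day 28 (-1.27 ± 0.65, adjusted p = 0.276) were not called. The second was called without day 0 replicate 1 (adjusted p = 0.00554) and on the 6 arrays alone (adjusted p = 0.00491), and on slide 1 it was -1.21. The day 28 rise missed the threshold with normexp (1.25, adjusted p = 0.0679) and without day 0 replicate 2 (2.01, adjusted p = 0.0522). It also missed it on the arrays of the 2 days alone (adjusted p = 0.0799) and with the slide as a fixed block (1.78).

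T and NK cell markers had their highest medians at days 7 and 14 as well. The median of 13 genes was -3.04 to -1.08 at day 0, -0.50 to -0.17 at day 7, -0.11 to 0.14 at day 14 and -1.16 to -0.78 at day 28, and 10, 11 and 5 of the 13 rose, against 17.7%, 20.1% and 17.4% of all probes. Cd4, the co-receptor of helper T cells that rat macrophages also carry, rose by 4.70 ± 0.46 at day 14, and Gzmb, a protease of cytotoxic granules, rose by 4.38 and was well above background on 1 of the 3 day 0 arrays. The share of the Cxcr3 change that goes with these cells was not tested.

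**Figure D2:**
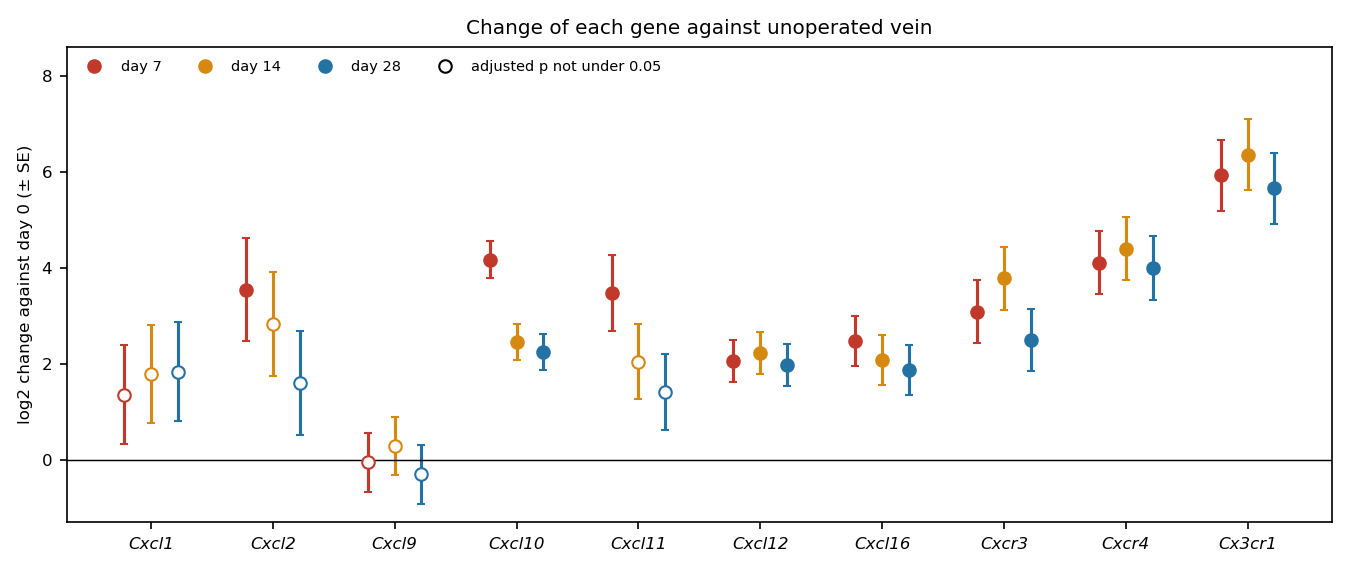
Log2 change of each gene against unoperated vein (y axis, ± SE from limma) at days 7, 14 and 28, with filled points where the adjusted p was under 0.05. The changes of Cx3cr1 run from 5.66 to 6.36, above those of the other genes under this scaling but not with normexp, where those of Cxcr4 are larger, and Cxcl9 lies at 0 within its error on all 3 days.

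Cxcl12 and its receptor Cxcr4 were both higher in grafts and nearly level from day 7 on. Cxcl12 read 2.89, 0.64 and 1.40 at day 0, 3.44, 3.71 and 3.95 at day 7, 3.88, 3.97 and 3.78 at day 14 and 3.66, 3.71 and 3.49 at day 28. The lowest graft array was 0.55 above the highest day 0 array. Cxcl12 rose by 2.06 ± 0.44 (adjusted p = 0.00575), 2.23 (adjusted p = 0.00312) and 1.98 (adjusted p = 0.00742).

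The probes of Cxcl12 disagreed. The probe used, for transcript NM_001033882, and that for NM_001033883 gave nearly the same changes, the second 2.06, 2.19 and 1.92. The probe for NM_022177 read 2.87, 0.66 and 0.67 at day 0, 3.01, 3.31 and 1.75 at day 7, 2.30, 2.46 and 2.29 at day 14 and 2.55, 2.87 and 2.04 at day 28. Its changes of 1.29 ± 0.58 (adjusted p = 0.116), 0.95 (adjusted p = 0.224) and 1.09 (adjusted p = 0.172) were not called, and 3 of its 9 graft arrays exceeded day 0 replicate 1. The rise of Cxcl12 is thus a result of a pair of its 3 probes.

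Cxcr4 read 0.44, -2.47 and -2.32 at day 0, 2.50, 2.13 and 3.34 at day 7, 2.95, 2.91 and 2.98 at day 14 and 2.53, 2.14 and 2.99 at day 28. All graft arrays lay above all day 0 arrays, the lowest by 1.69. It rose 17.2-fold at day 7 (4.11 ± 0.66, adjusted p = 0.00115), by 4.40 at day 14 (adjusted p = 0.000614) and by 4.0 at day 28 (adjusted p = 0.00158). Neighbouring graft days did not differ beyond their spread (0.29, adjusted p = 0.87, and -0.39, adjusted p = 0.762). On slide 3, 1 array of day 28 stood 4.0 above the mean of day 0 replicates 1 and 2.

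Ackr3, the atypical receptor that removes Cxcl12, went the other way. It read 2.85, 2.70 and 2.53 at day 0 and fell by 1.74 ± 0.40 at day 7 (adjusted p = 0.00747) and by 1.61 at day 14 (adjusted p = 0.00934), and its change of -0.94 at day 28 was not called (adjusted p = 0.0914). Its day 7 values were 1.35, 1.66 and -0.13, all below day 0. Of 5 tested genes of the hypoxia response, which is known to act on Cxcl12 and Cxcr4, 2 fell at days 7 and 14, against 15.4% and 17.4% of probes called lower, and at day 28 1 rose and 1 fell, against 17.4% and 16.5% of probes. Epas1, the hypoxia-inducible factor 2 alpha subunit found in endothelium, fell by 2.33 ± 0.23 at day 7 (adjusted p = 6.84e-05), and Vhl, which marks such factors for degradation, rose by 0.49 at day 28 (adjusted p = 0.0351).

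Cxcl16, a membrane-bound chemokine that also takes up oxidised lipoprotein, read 2.63, 0.44 and 0.33 at day 0 and 3.49, 3.26 and 4.08 at day 7. It read 3.18, 3.05 and 3.45 at day 14 and 3.01, 3.26 and 2.77 at day 28. Every graft array was above day 0 replicate 1, the nearest by 0.14. Cxcl16 rose by 2.48 ± 0.52 (adjusted p = 0.00492), 2.09 (adjusted p = 0.0099) and 1.88 (adjusted p = 0.0187). The day 28 call was lost without day 0 replicate 2 (1.54, adjusted p = 0.0647), without day 0 replicate 3 (1.48, adjusted p = 0.0575) and without day 28 replicate 1 or 2. Its receptor Cxcr6 was not called on any day, with changes of -0.44 ± 0.27, 0.39 and -0.62 (adjusted p = 0.235, 0.274 and 0.097).

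Cx3cr1 was higher on all 9 graft arrays than on any day 0 array. It read -3.96, -5.96 and -7.96 at day 0, the last not well above background, and 0.09, 0.02 and -0.19 at day 7. It read 0.26, 0.76 and 0.19 at day 14 and -0.25, -0.20 and -0.45 at day 28. The lowest graft array was 3.51 above day 0 replicate 1. Cx3cr1 rose by 5.93 ± 0.74 at day 7 (adjusted p = 0.000277), 6.36 at day 14 (adjusted p = 0.000138) and 5.66 at day 28 (adjusted p = 0.000478), against a day 0 mean in which 1 of 3 arrays was not well above background. These changes were larger than those of the other 9 members. With normexp, which lifts dim values, they were 3.25, 3.65 and 3.00, all called, and then lay below those of Cxcr4 (3.52, 4.01 and 3.64). They were 4.93, 5.36 and 4.66 without day 0 replicate 3, and with the slide as a fixed block 4.92 (adjusted p = 0.162), 5.21 (adjusted p = 0.0266) and 4.51 (adjusted p = 0.0188).

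Its ligand Cx3cl1, fractalkine, did not rise. Cx3cl1 read 1.29, -0.52 and -0.55 at day 0 and fell by 2.12 ± 0.70 at day 14 (adjusted p = 0.0348), where the arrays read -2.16, -1.59 and -2.41. Its changes of -0.29 at day 7 and 0.36 at day 28 were not called (adjusted p = 0.791 and 0.718). At day 14, then, all 3 arrays lay below every day 0 array for the ligand and above every day 0 array for the receptor.

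Macrophage markers rose with the receptors. Their median over 15 genes was 0.45 to 2.19 at day 0, 3.51 to 4.74 at day 7, 4.25 to 4.43 at day 14 and 3.05 to 3.16 at day 28, with 1 of the 15 not well above background on any day 0 array. On the 3 graft days in turn 13, 14 and 12 of the 15 rose, against 17.7%, 20.1% and 17.4% of all probes. Itgam, an integrin chain of monocytes, macrophages and neutrophils, rose by 6.44 ± 0.45 at day 7 (adjusted p = 8.72e-06), a change of the size of that of Cx3cr1. Like Cx3cr1, Itgam was well above background on 2 of the 3 day 0 arrays, so both sizes rest in part on dim values. How much of the receptor and ligand changes goes with these cells was not tested.

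**Figure D3:**
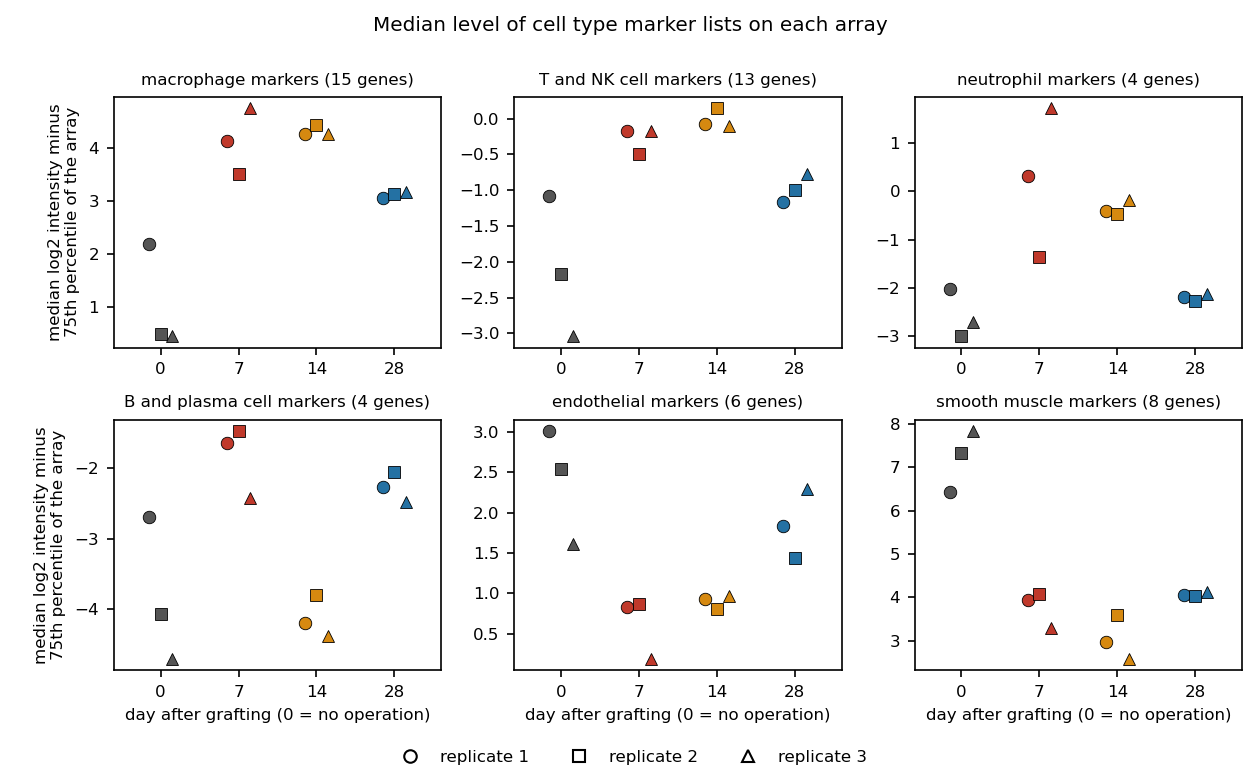
Median level of 6 lists of cell type markers on each array (y axis, log2 intensity minus the 75th percentile of the array) by day (x axis), with one symbol per replicate. Macrophage and T and NK cell medians are higher on day 0 replicate 1 than on the other day 0 arrays, and the neutrophil median ranges from -1.35 to 1.72 at day 7.

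Over all graft arrays against day 0, an exact two-sided permutation test with all 220 assignments gave p = 0.00455, the smallest it allows, for each of Cxcl10, Cxcl12, Cxcl16, Cxcr3, Cxcr4 and Cx3cr1. For Cxcl2 and Cxcl11 the exact p was 0.0318, for Cxcl1 0.0591 and for Cxcl9 0.964. These p-values are not adjusted. In an exact test 3 arrays against 3 cannot reach the threshold, and single days were not tested in this way. On slide 3 the day 28 array minus the mean of day 0 replicates 1 and 2 was 4.51 for Cx3cr1, 4.0 for Cxcr4, 1.78 for Cxcr3, 1.73 for Cxcl12, 1.67 for Cxcl10, 1.24 for Cxcl16, 0.94 for Cxcl1, 0.71 for Cxcl2, -0.08 for Cxcl11 and -0.58 for Cxcl9. Each rests on 1 day 28 array, which is also part of the day 28 calls. These differences equal the day 28 changes with the slide as a fixed block and are not a separate result.

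Against day 0 replicate 1 alone, the mean of the 9 graft arrays was higher by 3.98 for Cx3cr1, 2.28 for Cxcr4, 2.01 for Cxcl10, 1.1 for Cxcr3, 0.84 for Cxcl12 and 0.66 for Cxcl16. It was higher by 0.19 for Cxcl11 and 0.10 for Cxcl2, and lower for Cxcl9 (-0.74) and Cxcl1 (-1.23). Against the mean of the other two the same differences ran from 0.34 for Cxcl9 to 6.98 for Cx3cr1, all above 0.

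**Figure D4:**
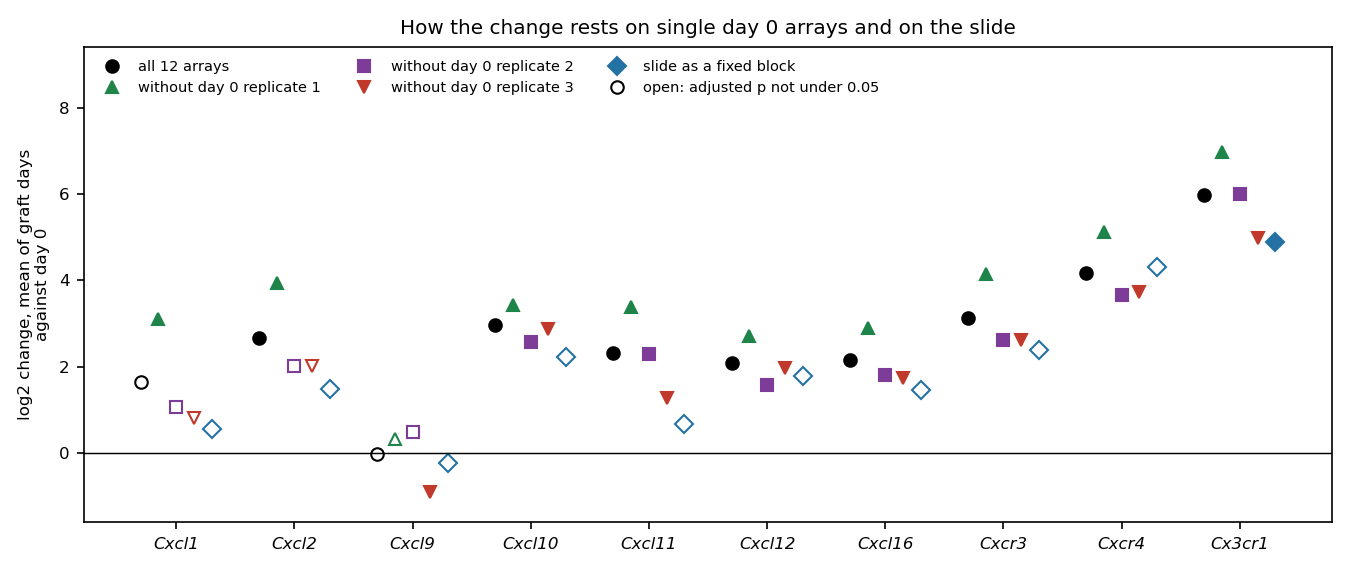
Log2 change between the day 0 mean and the mean of graft days for each gene (y axis) with all 12 arrays, without each day 0 array in turn and with the slide as a fixed block, with filled symbols where the adjusted p was under 0.05. Leaving out day 0 replicate 1 gives the highest value for 9 genes, the exception being Cxcl9, and with the fixed block Cx3cr1 alone is called, at 4.88.

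The other ligands of the family split by direction. Of 8 tested, 3 rose at day 7 (Cxcl17, Ppbp and Xcl1) and 1 fell (Cxcl14), 4 rose at day 14 (these and Cxcl6) and 2 fell (Cxcl14 and Cx3cl1), and 1, Xcl1, rose at day 28. Over all probes 17.7%, 20.1% and 17.4% were called higher and 15.4%, 17.4% and 16.5% lower. Cxcl17, an attractant of myeloid cells at mucosal surfaces, rose by 1.98 ± 0.23 at day 7 (adjusted p = 0.000175) and by 0.95 at day 14, and its change of -0.47 at day 28 was not called. Ppbp, the platelet basic protein precursor, rose by 3.14 ± 0.77 at day 7 and 2.74 at day 14, while Pf4, the other platelet ligand, was not called (0.58, 0.18 and -0.07). Xcl1, made by activated T and NK cells, rose by 3.24 ± 0.51, 2.49 and 2.07 and was well above background on 1 of 3 day 0 arrays. Cxcl14, a ligand made by resting epithelium and stroma, fell by 2.22 ± 0.67 at day 7 (adjusted p = 0.0273) and 2.54 at day 14 (adjusted p = 0.0131). Cxcl13 was not called (2.68 ± 1.39, 2.49 and 2.49, adjusted p = 0.166, 0.183 and 0.188), with its graft arrays between 1.02 and 3.05.

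Of 6 other receptors tested, Cxcr2 rose at days 7 and 14, Ackr2 and Ackr3 fell at both, and none was called against day 0 at day 28 by limma (Benjamini-Hochberg adjusted p). The 1 of 6 that rose is near the share of all probes called higher (17.7% and 20.1%), and 2 of 6 fell against 15.4% and 17.4% of probes. Ackr2, which scavenges inflammatory CC chemokines, fell by 3.38 ± 0.60 at day 7 (adjusted p = 0.002) and by 3.06 at day 14 (adjusted p = 0.00283). Its day 28 change was -0.42 (adjusted p = 0.611). Cxcr5, the receptor of Cxcl13, was not called (-0.70, 0.25 and -1.62). Cxcr1 was well above background on 3 of 12 arrays and on none of day 0, and its changes are not given. Cxcl3, Cxcl5, Xcr1, Ackr1 and Ackr4 had no tested probe and were not analysed here.

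**Figure D5:**
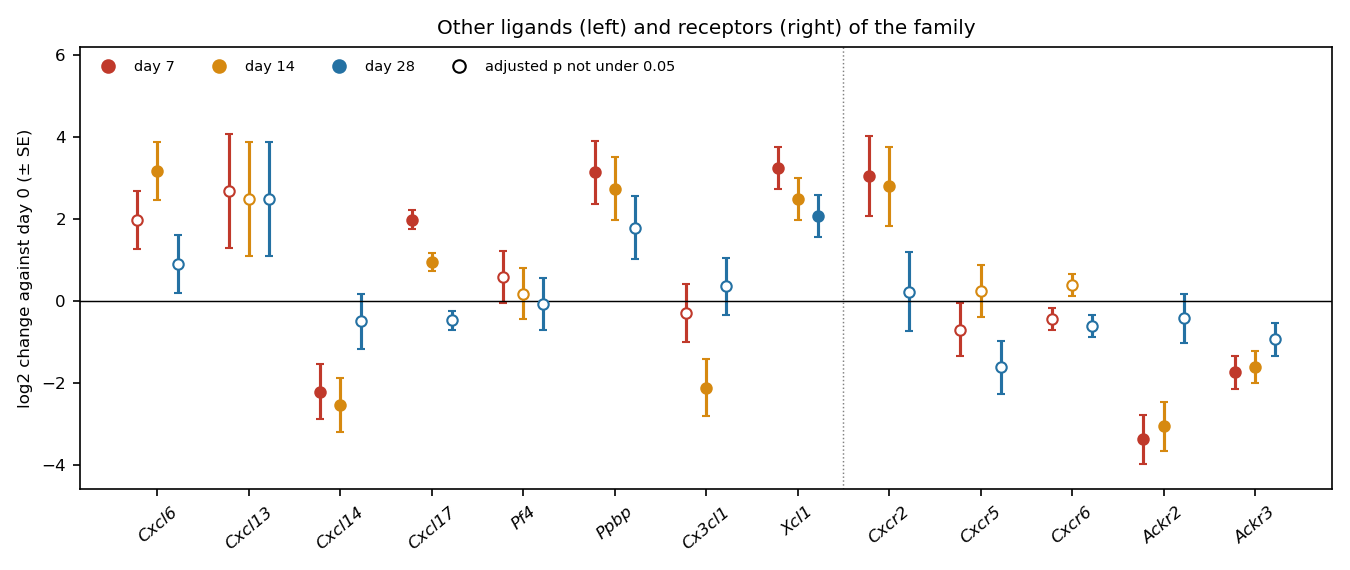
Log2 change against day 0 (y axis, ± SE from limma) of the 8 other ligands (left of the dotted line) and 5 other receptors (right, without Cxcr1) at days 7, 14 and 28, with filled points where the adjusted p was under 0.05. Xcl1 is filled on all 3 days, and Ackr2 and Ackr3 are filled below 0 at days 7 and 14.

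Among genes downstream of chemokine receptors, 18, 17 and 15 of 23 tested rose at days 7, 14 and 28, against 17.7%, 20.1% and 17.4% of all probes, with median changes of 1.41, 2.19 and 1.55. Rgs1, which shortens signals of G protein-coupled receptors in leukocytes, rose by 5.53 ± 0.95 at day 7 (adjusted p = 0.00171), and like the members it was higher on day 0 replicate 1 (0.24) than on the other two (-3.99 and -4.52). Grk5, a receptor kinase, was the single gene called lower at day 7 (-1.36, adjusted p = 0.0347) and at day 14 (-1.97). Of 8 tested proteases and partners that process chemokines, 5 rose on each day, beside the same shares of probes. Mmp12, the macrophage metalloelastase that cuts several CXC ligands, rose by 7.14 ± 0.65 at day 7 and 8.16 at day 14.

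For each member the genes whose values followed it most closely were ranked by Pearson's r over the 12 arrays among 12135 genes. The first was Il6 for Cxcl1 (r = 0.970), Psmb9 for Cxcl2 (0.961), Krt88 for Cxcl9 (0.983), Parp12 for Cxcl10 (0.982) and Phf11 for Cxcl11 (0.969). It was Gusb for Cxcl12 (0.985), Tnf for Cxcl16 (0.988), Slfn9 for Cxcr3 (0.994), Il10rb for Cxcr4 (0.994) and Clec2d2l2 for Cx3cr1 (0.997). These r are descriptions, since for most members the points share the gap between day 0 and grafts. Cxcl9 had no such gap, and its lowest value (-6.24, day 0 replicate 3) was not well above background. Over the 9 graft arrays alone r was 0.984 for Cxcl10 with Parp12, 0.962 for Cxcl16 with Tnf, 0.927 for Cxcl9 with Krt88 and 0.917 for Cxcl1 with Il6. It was 0.738 for Cxcl12 with Gusb and 0.740 for Cx3cr1 with Clec2d2l2.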

How the data were processed

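Per the labels' protocols, total RNA was taken up in Trizol and depleted of ribosomal RNA, and Cy3-labelled copies were primed along whole transcripts with oligo(dT) and random primers. The authors deposited Agilent Feature Extraction 11.0.1.1 scanner tables with linear intensity per spot, per the file headers. The authors' deposited value table holds log2 values, whose normalization is not given in the sources used here. Each column matched the array it names (lowest r 0.9936, highest 0.9992), with medians between 7.149 and 7.153, and served as an alternative.

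Here, log2 of the processed intensity minus each array's 75th percentile was averaged over the spots of a probe, after control spots and outlier spots were left out. Of 24684 probes, 14294 had 1 gene symbol through RefSeq accessions (GRCr8 table) and none had several. A probe was tested where 3 or more of 12 arrays had it well above background, which left 21063 for limma 3.58.1 (R 4.3.3), with 4 day groups and no covariate. The residual degrees of freedom were 8 and the prior ones 2.32, and the number of arrays limits the precision. The script was first tested on simulated data. For genes with several probes, the brightest was used.

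Alternatives were normexp, quantile scaling, another percentile, the authors' table, other filters, outlier spots kept, the arrays of the 2 days alone, the slide as a block, array weights, and leaving out arrays. Normexp used the median spot signal, since the files hold no mean signal. Members and gene lists were chosen with earlier results of these data known, and counts over lists are descriptions. All members and all tested genes of the 2 lists of other ligands and receptors are named. Of every other list, the genes named come from those with the largest called rise or fall on each day. One further gene list is not reported here. Promoter sequences are from RefSeq (GRCr8). Array coordinates were not used.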

Additional observations from a re-analysis of the deposited data

Results flagged for a closer look

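Cxcl10 differed between graft days by a test of the difference itself. Its level was lower at day 14 than at day 7 by limma (-1.72 ± 0.38, adjusted p = 0.0381), with all 3 day 14 arrays below all 3 day 7 arrays. It was also lower at day 28 than at day 7 (-1.92 ± 0.38, adjusted p = 0.0384), again with no overlap of the arrays. Both calls lie close to the threshold. Over the alternatives the adjusted p reached 0.434 for the first and 0.995 for the second.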

How the results depend on the processing

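The 40 changes of the members against day 0 were recomputed under each alternative. Of 962 such values 864 kept their direction and their side of the threshold, 60 lost a call, 17 gained one and 21 turned. Quantile scaling, the percentile over probes detected on all arrays, the authors' table, both other filters and keeping outlier spots changed no call or direction. Normexp, under which the median change of all probes was 0.44, -0.07 and -0.16 at days 7, 14 and 28 (-0.03, 0.02 and 0.01 otherwise), turned Cxcl9 at day 7 (0.69), at day 14 (-0.05) and over the graft days (0.06) and Cxcl11 at day 28 (-0.01). The random block turned Cxcl9 at day 7 (0.06) and over the graft days (0.10), the fixed block turned Cxcl11 at day 28 (-0.08) and Cxcl10 from day 14 to 28 (0.03), array weights turned Cxcl9 at day 14 (-0.21), and leaving out the arrays with many non-uniform spots did so too (-0.58). Leaving out 1 array gave Cxcl9 from -0.92 to 0.46 at day 7, -0.58 to 0.80 at day 14, -1.17 to 0.21 at day 28 and -0.89 to 0.49 over the graft days, and Cxcl10 from -0.42 to 0.04 between days 14 and 28. Members called higher against day 0 ranged without 1 array from 7 to 9 at day 7, 6 to 9 at day 14, 4 to 9 at day 28 and 7 to 9 over the graft days. Of all probes, 12.8% to 20%, 15% to 22.7%, 11.5% to 21.2% and 18.3% to 24.6% were called higher in these fits. Members called higher were 0, 1, 1 and 1 with the fixed block, which called 36 and 19 probes higher and lower at day 7, and 3 at day 7 and 3 at day 28 on the compared arrays alone. Members called lower were 0 to 1 without 1 array at day 7, day 28 and over the graft days, and 1 at day 28 and 1 over the graft days without the arrays with many non-uniform spots, each time Cxcl9. The 1 array in question was day 0 replicate 3. Without it 18.1%, 18% and 21.1% of probes were called lower at day 7, at day 28 and over the graft days. Without the arrays with many non-uniform spots, 24.8% of probes were called lower at day 28 and 26.7% over the graft days. From day 7 to day 14, 0 were lower with normexp, 0 with the fixed block and 0 with the random block, 2 on the compared arrays, 2 with array weights (and 4 higher), and 0 to 1 without 1 array. Of all probes, 1.63% were lower on the compared arrays, 24.8% with array weights (and 25.8% higher), and 0.617% to 4.33% without 1 array. From day 14 to day 28, 2 were lower on the compared arrays, 6 with array weights and 0 to 1 without 1 array. The shares of all probes called lower were 16.2%, 44.3% and 0.418% to 5%, so the first 2 counts lie near what probes in general did. From day 7 to day 28, 0 were lower with normexp, 0 with the fixed block, 0 with the random block and 0 without the arrays with many non-uniform spots, 2 on the compared arrays, 6 with array weights (and 1 higher), and 0 to 2 without 1 array. Of all probes, 0.603% were lower on the compared arrays, 35.4% with array weights (and 28.4% higher), and 0.104% to 1.88% without 1 array. The cause of these changes was not tested. No paired analysis was possible because all labels carry the same replicate number. The values of Cxcl9, Cxcl11 and Cx3cr1 on day 0 replicate 3 were not well above background. They were the lowest day 0 values of these genes, so the size of their day 0 spread rests in part on dim values.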
